A study of Rattus norvegicus with 6 samples.

Results

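The neuregulins Nrg1, Nrg2 and Nrg3 and the receptors Erbb2, Erbb3 and Erbb4 were followed across marker-gated nuclei of the rat nucleus accumbens, a reward-related region at the base of the striatum. These 6 genes were found by symbol among the 25629 genes of the files. They were chosen by the pattern of their UMI counts over cell classes and by their saline and naloxone values, those in Pdgfra-gated precursors included. Levels by class and the naloxone contrast in those precursors are therefore described here with no test. Naloxone tests of the members in other gates are not independent of that choice.

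All rats were adult Sprague-Dawley rats between postnatal days 90 and 120, and all had self-administered heroin, so that both groups share the drug history. They worked for 7 days at 1 response per infusion and 4 days at 3 responses, took a progressive ratio test on day 12, and returned to 3 responses on days 13 and 14. After the last session they received saline or naloxone, an opioid receptor antagonist, and brains were taken 1 h later. Tissue of 6 male and 6 female rats was pooled into 6 libraries of both sexes, saline replicates 1 to 3 and naloxone replicates 4 to 6. Heroin-naive rats were not analysed here, and which rats make up each pool is not given in the sources used here.

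Neuregulins are EGF-like ligands, mostly made as membrane-anchored precursors that proteases such as Bace1 can shed. Erbb3 and Erbb4 bind neuregulins, whereas Erbb2 binds no ligand of its own and acts as a partner of the other receptors, and Erbb3 has little kinase activity of its own. Erbb4 in the brain is best known from GABAergic interneurons. Neuregulin signalling through Erbb2 and Erbb3, taken over the whole body, is best known from myelinating glia.

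The libraries held between 55739350 and 76272798 UMIs (unique molecular identifiers, each standing for 1 captured RNA molecule) over 64260 barcodes, of which 61609 nuclei passed the filters. The labels speak of 44592 nuclei. Pairs of libraries shared 19 to 45 barcodes. Naloxone replicate 5 had the highest median share of mitochondrial UMIs, 0.551%, against 0.151% to 0.338% in the other 5 libraries. Gates took 24904 nuclei in all and left 36705 (59.6%) in no gate, so the gated nuclei are a marker-rich subset of each class.

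Each gate asked for UMIs of a marker list, set against their mean and against the next list of the same kind, neuronal or non-neuronal. Marker lists of the other kind were not compared. Neuronal gates also needed at least 30 UMIs of Snap25, Syt1 and Rbfox3 per 10000, and non-neuronal gates fewer than 25, a limit set after member levels had been seen. The gates held 944 Drd1, 4360 Drd2 and 4326 Chst9 and Grm8 nuclei, all 3 being classes of spiny projection neuron, and 320 nuclei gated on Slc5a7, the choline transporter gene. Another 268 were gated on Sst, Npy, Nos1 and Chodl, and 123 on Pthlh, Pvalb and Kit. Among glia there were 3632 astrocyte-gated, 1334 Pdgfra precursor, 466 committed precursor, 6907 oligodendrocyte-gated and 1570 microglia-gated nuclei. No gate had a marker of another list among its 10 leading genes. The Slc5a7 gate rests on 1 marker and is given no cell type name, and 2735 oligodendrocyte-gated nuclei lay close to the limit that sets them off from the next list.

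Transcription of the ligands was mostly neuronal. Neuronal nuclei held 81.5% of all UMIs but 93.9% ± 1.42 of Nrg1 UMIs, 91.7% ± 1.33 of Nrg2 UMIs and 87.4% ± 2.04 of Nrg3 UMIs (SD, n = 6 libraries). Erbb4 was close to the share of all UMIs, with 80.5% ± 2.72 in neuronal nuclei, and Erbb3 was below it, with 21.6% ± 4.50. Nrg1, Nrg3 and Erbb4 are very long genes and nuclear RNA is rich in introns, so levels are compared below between gates for 1 gene and never between genes.

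**Figure D1:**
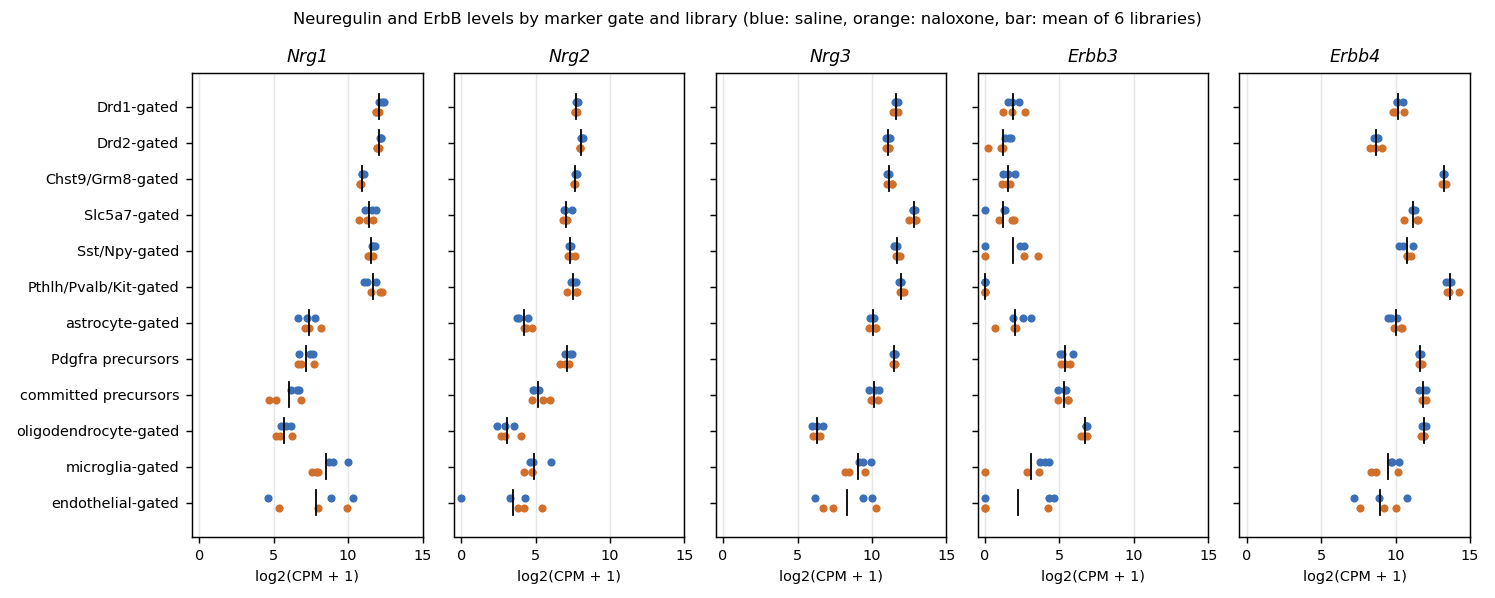
Level of 5 members in 12 gates, as log2(CPM + 1) on the horizontal axis, with 1 point per library (blue saline, orange naloxone) and a bar at the mean of 6 libraries. Nrg1 is high in all 6 neuronal gates and low in the oligodendrocyte lineage, Nrg3 reaches its highest level in Slc5a7-gated nuclei, Erbb3 is high in the oligodendrocyte lineage, and Erbb4 is high in Pthlh, Pvalb and Kit and in Chst9 and Grm8 nuclei.

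Nrg1 (ENSRNOG00000010392) was highest in the classic spiny neurons. Its level, in CPM (the gene's UMIs per library and gate, scaled to one fixed total for every gate), was 4422 ± 656 in Drd1-gated and 4342 ± 374 in Drd2-gated nuclei (SD, n = 6 libraries here and for the levels that follow). These 2 gates do not differ beyond their spread, since Drd1 was the higher in 2 of 6 libraries. Chst9 and Grm8 nuclei, the third spiny class, held 1923 ± 144 CPM, and the Drd2 gate was 2.26-fold higher in 6 of 6 libraries. The other neuronal gates lay between them, at 3479 ± 1126 CPM for Pthlh, Pvalb and Kit, 3047 ± 374 CPM for Sst and Npy, and 2739 ± 707 CPM for Slc5a7, and these neighbours overlap. Of Drd2-gated nuclei 97.6% ± 1.48 held a Nrg1 UMI, and 87.7% ± 2.75 after each nucleus was thinned to 1000 UMIs.

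Glial Nrg1 was far lower. Pdgfra precursors held 148 ± 48.0 CPM, astrocyte-gated nuclei 177 ± 69.9 CPM, committed precursors 72.7 ± 36.6 CPM and oligodendrocyte-gated nuclei 53.6 ± 16.5 CPM. Drd1-gated nuclei were 29.9-fold above the precursors and 82.5-fold above the oligodendrocyte gate, in 6 of 6 libraries. These glial levels differed between gates with and without the limit on neuronal UMIs. With no limit, the precursors held 1209 ± 258 CPM, astrocyte-gated nuclei 987 ± 114 CPM, committed precursors 1411 ± 579 CPM and oligodendrocyte-gated nuclei 741 ± 269 CPM of Nrg1. Thinned to 1000 UMIs, 9.48% ± 1.63 of precursors, 8.26% ± 1.51 of astrocyte-gated and 4.05% ± 0.939 of oligodendrocyte-gated nuclei held a Nrg1 UMI, against 23.3%, 13.3% and 6.76% unthinned. The microglia gate gave 8.34% ± 2.54 thinned and 10.3% unthinned, at a median depth of 1488 UMIs against 3604 UMIs in the precursors. The thinned shares of the precursor, astrocyte and microglia gates lay within their spread of each other, and the oligodendrocyte gate was lower.

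Nrg2, a ligand of both Erbb3 and Erbb4, followed the neurons more evenly. Drd2-gated nuclei held 265 ± 13.1 CPM and Drd1-gated nuclei 212 ± 12.5 CPM. The lowest Drd2 library, at 251 CPM, lay above the highest Drd1 library, at 229 CPM. Chst9 and Grm8 nuclei held 198 ± 10.6 CPM and the Slc5a7 gate 131 ± 20.6 CPM. Pdgfra precursors, at 139 ± 27.2 CPM, sat among the neuronal gates, while the oligodendrocyte gate held 8.16 ± 4.10 CPM.

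Nrg3, a ligand that binds Erbb4, was highest in Slc5a7-gated nuclei. They held 7746, 6855 and 6782 CPM in saline replicates 1 to 3 and 7477, 5874 and 8071 CPM in naloxone replicates 4 to 6. All 6 libraries lay above every library of the next gate, Pthlh, Pvalb and Kit, at 4011 ± 338 CPM. Pdgfra precursors, at 2895 ± 128 CPM, did not differ beyond the spread from Drd1-gated nuclei at 3112 ± 274 CPM, and every precursor library lay above every Chst9 and Grm8 library (2307 ± 269 CPM). Of the precursors 98.0% held a Nrg3 UMI, and 89.2% ± 2.20 after thinning, against 15.4% and 12.9% ± 4.46 of microglia-gated nuclei. Astrocyte-gated nuclei held 1083 ± 133 CPM and oligodendrocyte-gated nuclei 79.5 ± 16.4 CPM.

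Erbb2 was almost undetected. Over all nuclei 34 of 400031644 UMIs were Erbb2, and 10 of them were in astrocyte-gated nuclei (1.09 ± 0.807 CPM). Oligodendrocyte-gated nuclei held 2 UMIs. Pdgfra and committed precursors held 0, which allows up to 0.557 and 1.83 CPM (3 counts over the 6 libraries), and Drd1-gated nuclei held 0, which allows up to 0.238 CPM. These limits cover counting error only, so a lower level of Erbb2 was not detectable at this depth.

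Erbb3 marked the oligodendrocyte lineage. Oligodendrocyte-gated nuclei held 112, 115 and 110 CPM after saline and 98.6, 84.9 and 114 CPM after naloxone. Each of these lay above every library of the Pdgfra precursors (41.6 ± 11.2 CPM) and the committed precursors (39.5 ± 8.45 CPM), which overlapped each other. Drd1-gated nuclei held 2.91 ± 1.51 CPM, 36.3-fold less than the oligodendrocyte gate, and the Pthlh, Pvalb and Kit gate held 0 Erbb3 UMIs, which allows up to 1.81 CPM. After thinning, 9.57% ± 1.24 of oligodendrocyte-gated nuclei held an Erbb3 UMI, against 0.684% of microglia-gated nuclei, and 17.5% and 2.05% unthinned.

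Erbb4, the neuregulin receptor of interneurons, was highest in the Pthlh, Pvalb and Kit gate. It held 10704, 13212 and 12213 CPM after saline and 19347, 12429 and 11347 CPM after naloxone. Chst9 and Grm8 spiny nuclei came second at 9663 ± 533 CPM, below the interneuron gate in 6 of 6 libraries. They stood 8.31-fold above Drd1-gated nuclei (1162 ± 240 CPM) and 23.5-fold above Drd2-gated nuclei (411 ± 73.8 CPM). The classic spiny gates that held most Nrg1 thus held the least Erbb4 of the neuronal gates. Within the Chst9 and Grm8 gate, the 3853 nuclei with a Chst9 UMI held 10369 ± 717 CPM and the 473 without one held 5103 ± 747 CPM, with no overlap between libraries.

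The other neuronal gates with interneuron or Slc5a7 markers held less Erbb4, with 2359 ± 489 CPM in the Slc5a7 gate and 1734 ± 416 CPM in the Sst and Npy gate. Oligodendrocyte-gated nuclei held 3754 ± 302 CPM, above every library of the Slc5a7 gate. After thinning, 93.5% ± 1.34 of oligodendrocyte-gated and 92.7% ± 2.00 of Pdgfra precursor nuclei held an Erbb4 UMI, against 18.1% of microglia-gated nuclei (96.3%, 99.3% and 20.3% unthinned).

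The oligodendrocyte lineage was followed from Pdgfra precursors through committed precursors to oligodendrocyte-gated nuclei. Nrg3 was lower at each step, 2895 ± 128, 1136 ± 199 and 79.5 ± 16.4 CPM, a 36.4-fold difference between the first and the last. Nrg2 stood at 139 ± 27.2, 37.2 ± 13.1 and 8.16 ± 4.10 CPM. Every precursor library was above every committed library for both ligands. The size of these steps differed between gates with and without the limit on neuronal UMIs, and in stricter gates. With no limit, Nrg3 stood at 2901 ± 132, 2640 ± 763 and 711 ± 197 CPM, and in stricter gates at 2894 ± 88.0, 720 ± 185 and 75.8 ± 12.3 CPM. Nrg2 stood at 156 ± 10.97, 118 ± 9.27 and 53.1 ± 16.3 CPM with no limit, and at 137 ± 43.0, 26.3 ± 21.2 and 7.998 ± 4.65 CPM in stricter gates. Erbb4 was 3191 ± 189, 3693 ± 449 and 3754 ± 302 CPM, and the last gate was 1.18-fold above the first in 6 of 6 libraries. Erbb3 was 2.54-fold higher in the last gate than in the first. The summed UMIs of Snap25, Syt1 and Rbfox3 also differed between these gates, at 1132 ± 45.1, 589 ± 76.5 and 294 ± 57.3 CPM, and their part in the Nrg2 and Nrg3 levels was not tested.

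**Figure D2:**
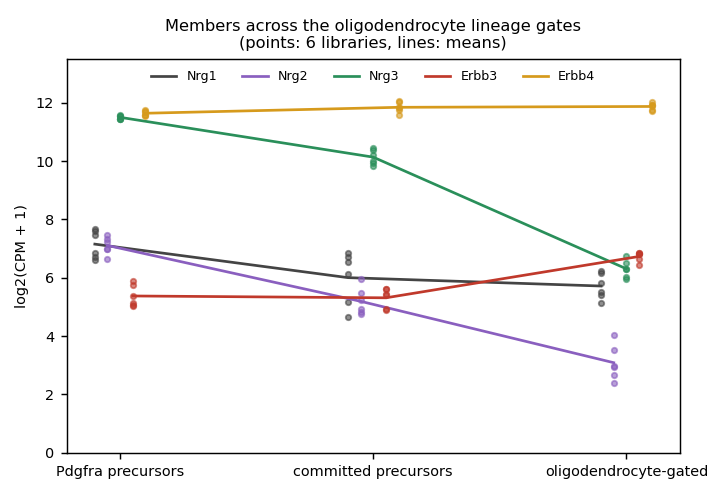
Level of 5 members in Pdgfra precursors, committed precursors and oligodendrocyte-gated nuclei, as log2(CPM + 1), with 1 point per library and lines joining means of 6 libraries. The Nrg3 and Nrg2 lines fall from the first gate to the last, the Erbb4 line is 1.18-fold higher in the last gate than in the first, and the Erbb3 line rises in the last gate.

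Likeness of pattern was measured as Pearson's r of log2(CPM + 1) over 14 gates, among 10100 genes, as a description. The points share libraries and depth. Genes close to Nrg1 included Cdh7 (r = 0.96) and Zfp385b (0.96). Genes close to Nrg2 included Unc80 (0.97) and Bsn (0.97), a presynaptic scaffold, and Nrg3 was most like Rit2 (0.96), Rimbp2 (0.95) and Gpc6 (0.95). Erbb3 was most like Cdh19 (0.97), Phldb1 (0.95) and Creb5 (0.95). Erbb4 had no close match, its nearest being Amph (0.79), Tle2 (0.77) and Mrs2 (0.76).

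Nrg1 in Pdgfra-positive nuclei differed with how much neuronal RNA the nuclei carried. The 1814 nuclei with at least 2 Pdgfra UMIs were split by their Snap25, Syt1 and Rbfox3 UMIs per 10000, a split made after the data were seen. Below 5, Nrg1 stood at 133 ± 65.4 CPM, from 5 to 10 at 95.5 ± 13.9 CPM, and from 10 to 15 at 119 ± 14.2 CPM. From 15 to 25 it was 440 ± 230 CPM, from 25 to 40 it was 1963 ± 386 CPM, and at 40 or more it was 2648 ± 509 CPM. The last value lies between the Chst9 and Grm8 gate and the Drd2 gate. Nrg3 in the same nuclei stayed between 2391 ± 140 and 2967 ± 218 CPM over the 6 ranges. Pdgfra itself stood at 875 ± 102 CPM below 5, at 335 ± 58.8 CPM from 25 to 40 and at 160 ± 76.2 CPM at 40 or more. What sets the Nrg1 level in these ranges was not tested.

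**Figure D3:**
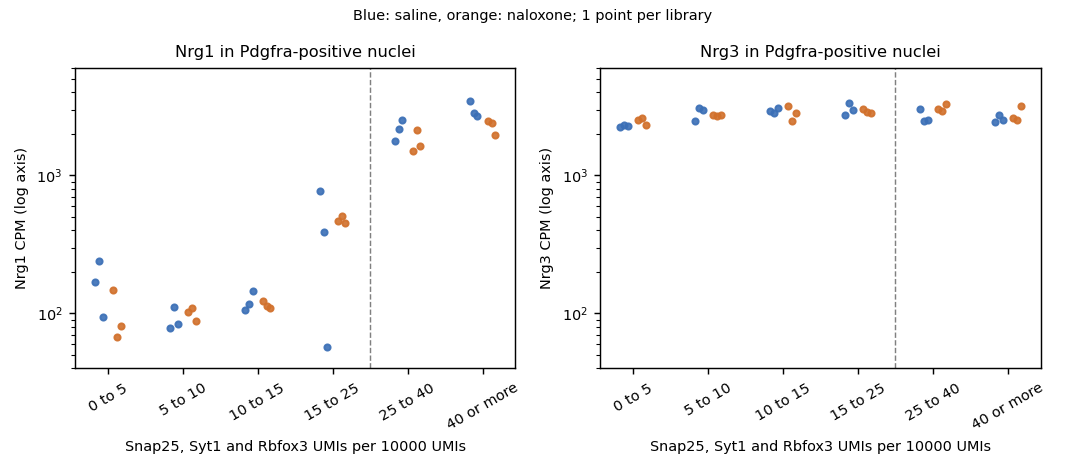
Nrg1 (left) and Nrg3 (right) in CPM on a log axis in Pdgfra-positive nuclei, by the Snap25, Syt1 and Rbfox3 UMIs per 10000 UMIs of the nucleus, with 1 point per library (blue saline, orange naloxone) and a dashed line at the limit of 25. No library exceeds 240.1 CPM of Nrg1 in the first 3 ranges and none lies under 1514 CPM right of the line, while Nrg3 stays between 2260 and 3347 CPM in the 6 ranges.

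The precursor level of Nrg1 moved far more between gate settings than that of Nrg3 or Erbb4. Without the limit on neuronal UMIs, the mean that markers were set against was taken over all nuclei, so more than the limit changed. The gate then held 1289 nuclei, against 1334 with the limit. With the limit of 25 the gate held 148 ± 48.0 CPM, with a stricter gate 109 ± 26.7 CPM, and with no limit on neuronal UMIs 1209 ± 258 CPM. Nrg3 was 2895 ± 128, 2894 ± 88.0 and 2901 ± 132 CPM under the same 3 settings, and Erbb4 was 3191 ± 189, 3271 ± 186 and 2863 ± 325 CPM. Of the Pdgfra-positive nuclei 26.6% were at or over the limit, between 19.2% and 32.7% by library. The 482 nuclei at or over it had a median depth of 11144 ± 3291 UMIs against 3937 ± 940 UMIs in the 1332 under it. Xist and Y-linked UMIs, which a nucleus of 1 sex should not carry together, were both present in 47.2% ± 10.5 of the former and 6.45% ± 1.84 of the latter (mean and SD over 6 libraries). For comparison, Drd1-gated nuclei of similar depth (median 11328 UMIs) carried both in 19.1% of cases and Slc5a7-gated nuclei (12687 UMIs) in 11.3%. The part of droplets with more than 1 nucleus in the Nrg1 level was not tested.

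For naloxone against saline, precursor Nrg1 is given as values only. With the limit it was 174, 194 and 105 CPM after saline and 203, 96.4 and 114 CPM after naloxone, and the groups overlap. With no limit it was 1587, 1459 and 999 CPM after saline and 1063, 1184 and 964 CPM after naloxone, and the groups overlap there too, through saline replicate 3. In Pdgfra-positive nuclei at or over 25 it was 3236, 2613 and 2654 CPM after saline and 2286, 2311 and 1880 CPM after naloxone. In those under 25 it was 360, 230.0 and 96.7 CPM after saline and 219, 199 and 212 CPM after naloxone, inside the range of the saline libraries. These values took part in choosing the members, and nothing is read from them.

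The remaining naloxone contrasts, the Pthlh, Pvalb and Kit gate left out for its few nuclei, were tested with edgeR's quasi-likelihood test in 11 fits, all nuclei and 10 gates. Saline and naloxone values took part in choosing the members, so these fits describe the members and give no independent support. None of 46 member values was called at an adjusted p of 0.05. At an unadjusted p under 0.05 there were 6 (13.0%), against 10.1% of all gene values in the same 11 fits, the lowest adjusted p was 0.205, and DESeq2 called 1. Over all genes the same test called 0.0803% in all nuclei, 0.607% in the astrocyte gate, 0.854% in the oligodendrocyte gate, 0.319% in Drd2, 0.0965% in Chst9 and Grm8 and 0.0268% in microglia-gated nuclei, and 0% in the Drd1, Slc5a7, Sst and Npy, committed precursor and endothelial gates. The count is not fixed by the data alone, since with no filter on low counts 4 member values were called, 3 of them in the microglia gate and Erbb4 in the astrocyte gate. Without the filter, 2.13% of all genes were called in the microglia gate and 1.36% in the astrocyte gate. Whether the naloxone difference varies between gates was not tested.

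Nrg1 was lower after naloxone, without passing the test, in all nuclei and in the 3 spiny gates. In all nuclei it was 3214, 3059 and 3015 CPM after saline and 2291, 2883 and 2454 CPM after naloxone. The groups do not overlap, as for 10.2% of genes lower in that fit, and the log2 difference was -0.29 (SE 0.09, adjusted p = 0.238). The neuronal share of nuclei was 61.6%, 60.5% and 53.1% after saline and 52.4%, 61.2% and 58.1% after naloxone. Neuronal nuclei held 83.8%, 82.7% and 79.0% of UMIs after saline and 77.3%, 83.6% and 82.6% after naloxone. Both shares overlap between the groups, and their part in the Nrg1 difference was not tested.

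Within gates, Drd1-gated nuclei held 5391, 4381 and 4968 CPM of Nrg1 after saline and 3724, 4286 and 3783 CPM after naloxone (log2 difference -0.34, SE 0.11, adjusted p = 0.447 by edgeR). Drd2-gated nuclei held 4606, 4719 and 4631 CPM after saline and 3888, 4305 and 3901 CPM after naloxone (-0.19, SE 0.06, adjusted p = 0.293). Chst9 and Grm8 nuclei held 2152, 1994 and 1942 CPM after saline and 1742, 1902 and 1808 CPM after naloxone (-0.15, SE 0.07, adjusted p = 0.495). Every naloxone library lay below every saline library in these 3 gates, a pattern that 6.54%, 10.5% and 9.75% of genes showed in the same direction. Its sign held in 13 of 13 alternatives in each of these gates. With groups that do not overlap, leaving out 1 library could hardly change the sign, so this is no further support. Nrg2 was also lower without overlap in all nuclei, Drd2 and Chst9 and Grm8 nuclei, by 0.12, 0.10 and 0.10 on the log2 scale, with adjusted p of 0.424, 0.626 and 0.676 by edgeR.

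In the other neuronal gates the groups overlapped for Nrg1. The Slc5a7 gate held 2282, 3063 and 3667 CPM after saline and 3211, 2491 and 1719 CPM after naloxone, and the Sst and Npy gate 3513, 3128 and 3194 CPM against 2680, 2519 and 3250 CPM. The Pthlh, Pvalb and Kit gate, which was not tested, held 3817, 2425 and 2187 CPM after saline and 4942, 2989 and 4513 CPM after naloxone, a higher mean after naloxone.

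**Figure D4:**
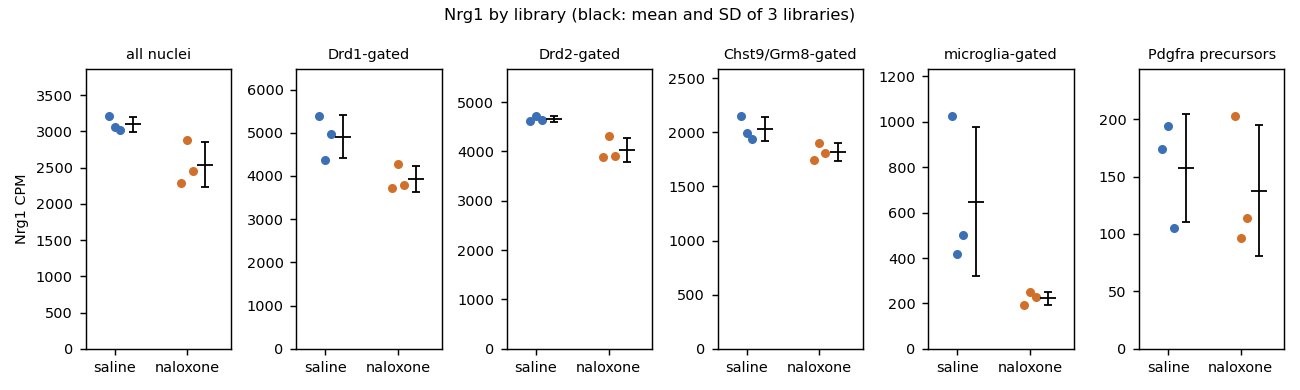
Nrg1 in CPM by library, saline (blue) against naloxone (orange), in all nuclei and 5 gates, with the mean and SD of 3 libraries in black and a separate vertical axis from 0 in each panel. The naloxone libraries lie below the saline libraries in the first 5 panels, and the groups overlap in Pdgfra precursors.

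The widest Nrg1 difference was in the microglia gate. It held 1026, 419 and 502 CPM after saline and 193, 250 and 228 CPM after naloxone (log2 difference -1.56, SE 0.32, adjusted p = 0.205 by edgeR), without overlap, as for 7.56% of genes. DESeq2 called it. The summed Snap25, Syt1 and Rbfox3 UMIs in that gate were 965, 608 and 537 CPM after saline and 527, 492 and 463 CPM after naloxone, so they moved in the same direction, and their part in the difference was not tested. In a stricter gate Nrg1 was 303, 63.1 and 57.7 CPM after saline and 168, 103 and 28.1 CPM after naloxone, which overlap, and Erbb4 in microglia-gated nuclei went from 788 ± 362 to 482 ± 158 CPM.

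Erbb4 in astrocyte-gated nuclei stood at 832, 712 and 1096 CPM after saline and 1372, 952 and 1289 CPM after naloxone. The log2 difference was 0.48 (SE 0.16, adjusted p = 0.270 by edgeR), and the groups overlap through naloxone replicate 5. Over all 6 libraries Erbb4 in this gate was 1042 ± 258 CPM, against 862 ± 244 CPM in the stricter gate and 1488 ± 235 CPM with no limit on neuronal UMIs. Over 13 alternatives the log2 difference ran from 0.17 to 0.68. It was called in 2, with no filter on low counts and without naloxone replicate 5 (0.64, adjusted p = 0.0417 by edgeR). Nrg3 in Chst9 and Grm8 nuclei, at 2235, 2099 and 2177 CPM after saline and 2656, 2043 and 2633 CPM after naloxone, was called only without the same library (0.32, adjusted p = 0.0121). Erbb3 in oligodendrocyte-gated nuclei differed by -0.17 (SE 0.13, adjusted p = 0.698).

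The other genes of the pathway were read from a list of 32, chosen with earlier results of these data known. Counts of listed genes are therefore a description and give no independent support. Errfi1, an inducible feedback inhibitor of ErbB receptors, was called, and in the fits reported here it was the only one. In oligodendrocyte-gated nuclei 1 of 23 listed genes tested rose and none fell. Errfi1 held 83.7, 76.6 and 79.1 CPM after saline and 175, 333 and 175 CPM after naloxone. The log2 difference was 1.49 (SE 0.20, adjusted p = 0.00313 by edgeR). The test called 0.638% of all genes higher in this gate, and groups did not overlap upward for 8.37%. It stayed called in 13 of 13 alternatives, with adjusted p up to 0.0398, and was 1.15 on the log2 scale without naloxone replicate 5, the highest library.

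In astrocyte-gated nuclei 1 of 23 listed genes tested rose, against 0.476% of all genes. Errfi1 rose by 1.52 (SE 0.32, adjusted p = 0.0493 by edgeR), without overlap, as for 6.61% of genes. The call was lost with DESeq2, with at least 1000 genes per nucleus and without any 1 saline library, with adjusted p up to 0.249. Errfi1 in Pdgfra precursors was 46.8 ± 8.58 CPM after saline and 124 ± 55.0 CPM after naloxone (SD, n = 3 libraries). The groups did not overlap, as for 6.09% of genes. Only values are given, since the naloxone contrast in that gate took part in choosing the members. In microglia-gated and Drd2-gated nuclei the groups did not overlap either (8.48% and 7.40% of genes), at log2 differences of 1.07 and 0.39 and adjusted p of 0.257 and 0.354 by edgeR. Naloxone replicate 5 was the highest library in each of these gates, and it also had the highest mitochondrial share.

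**Figure D5:**
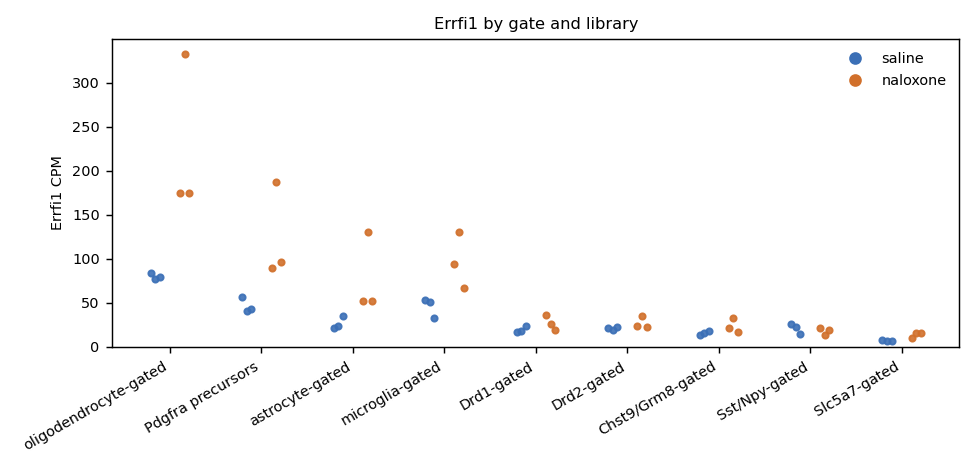
Errfi1 in CPM by library in 9 gates, saline in blue and naloxone in orange. The 3 naloxone libraries lie above the 3 saline libraries in the oligodendrocyte, Pdgfra precursor, astrocyte, microglia and Drd2 gates, and the highest point of the oligodendrocyte gate, at 333 CPM, is naloxone replicate 5.

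Each library pools both sexes, so nuclei were divided by Xist and Y-linked UMIs and female was compared with male within libraries, a contrast that did not choose the members. None of 33 member values was called by edgeR's quasi-likelihood test, 3 (9.09%) had an unadjusted p under 0.05, against 6.53% of all gene values in the same 8 fits, and DESeq2 called 0. The test called 0.097% of all genes in all nuclei, 0.0906% in astrocyte-gated, 0.0979% in Chst9 and Grm8, 0.0863% in Drd1, 0.0687% in Drd2, 0.298% in microglia-gated, 0.122% in oligodendrocyte-gated and 0.786% in Pdgfra precursor nuclei. With no filter on low counts 4 member values were called, Erbb4 in Drd2-gated nuclei, Nrg1 and Erbb4 in the astrocyte gate and Nrg1 in the precursors, where 0.468%, 0.393% and 0.406% of all genes were called.

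Nrg1 in Pdgfra precursors was higher in female nuclei in 5 of 6 libraries, at 159 ± 67.9 CPM in female and 101 ± 38.4 CPM in male nuclei (SD, n = 6 libraries). The log2 difference was 0.57 (SE 0.16, adjusted p = 0.0756 by edgeR), and without saline replicate 3 it was called (0.73, adjusted p = 0.0188). These levels are low against the 1209 ± 258 CPM that the precursor gate held with no limit on neuronal UMIs, and the part of neuronal RNA in the difference was not tested. Erbb4 in astrocyte-gated nuclei was 1201 ± 382 CPM in female and 827 ± 301 CPM in male nuclei, higher in 5 of 6 libraries (0.57, SE 0.12, adjusted p = 0.110), and was called without naloxone replicate 5 (adjusted p = 0.0243) or 6 (0.0293). Erbb4 in Drd2-gated nuclei differed by 0.57 (SE 0.17, adjusted p = 0.558), at 358 ± 94.3 CPM in female and 246 ± 91.0 CPM in male nuclei. Whether the naloxone difference varies with sex was not tested.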

How the data were processed

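Nuclei of 6 libraries were measured with a droplet 3' kit (GEM-X version 4, per the labels). The deposited values are counts of UMIs per gene and barcode without normalization, made with Cell Ranger 9.0.1 per the file headers; per the submitters' processing notes the build was mRatBN7.2 and Seurat 5.2.1 and R 4.4.0 were used. Whether intron reads were counted is not given in the sources used here.

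Barcodes were kept from 500 detected genes upward if mitochondrial UMIs made up no more than 5%. A gate needed at least 3 marker UMIs from 2 markers, 1.5 times the mean of neuronal or other nuclei in that library and 1.5 times the next list of the same kind, neuronal or other. The members and gene lists were chosen with earlier results of these data known. The gate thresholds were set after seeing the data, member levels included: 5 gate settings were tried and 1 kept, and the stricter gate (at least 5 marker UMIs, 2 times both, neuronal limits of 40 and 15) was redefined once. Of 83 markers 79 matched a symbol. No doublet caller was run; nuclei with both Xist and Y-linked UMIs (8.62%) were left out as an alternative.

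UMIs were summed per library and gate and tested with edgeR 4.0.16 (quasi-likelihood F-test, TMM, default filter, Benjamini-Hochberg over all genes of a fit, threshold 0.05), in gates with at least 20 nuclei in every library. Female against male had library as a block. Alternatives were DESeq2 1.42.0, RLE factors, no filter, each library left out, at least 1000 genes, the Xist and Y exclusion, the stricter gate and, added after seeing the data, no neuronal limit. Libraries are pools of rats, and p-values for naloxone against saline measure the spread between pools. Those for female against male measure the spread of the difference within pools. Tested on simulated data, where 200 genes had a log2 change of 1, the fit recovered 80.0% over all nuclei (17443 genes), 71.5% in the oligodendrocyte gate (10651 genes), 67.5% in Drd1 (10298 genes) and 29.0% in the microglia gate (7456 genes). Named genes are the members, called pathway genes and the 3 genes most like each member, of which some are not reported here.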

Additional observations from a re-analysis of the deposited data

How the results depend on the processing

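The count of member values called for naloxone in the gates was 0. It was 1 with DESeq2 (Nrg1, microglia), 4 with no filter on low counts, and 1 with no limit on neuronal UMIs (Nrg1, committed precursors), and 0 to 2 when each library was left out. For female against male it was 4 with no filter and 0 to 1 when each library was left out. The naloxone contrast of Nrg1 in Pdgfra precursors took part in choosing the members, so it is described with no test. Its log2 difference of -0.11 ran from -0.50 to 0.086 when each library was left out. It reversed to 0.086 (saline replicate 2 removed), 0.065 (naloxone replicate 5 removed) and 0.042 (naloxone replicate 6 removed). It was 0.21 once nuclei with Xist and Y-linked UMIs together were removed. Nothing is read from these values. The Drd1 over Drd2 level of Nrg1 ran from -0.020 (without saline replicate 1) to 0.054 when each library was left out. On the log2 scale, Nrg2 in Drd2 over Drd1 moved to 0.41 with the stricter gate, and Erbb4 in Chst9 and Grm8 over oligodendrocyte-gated nuclei moved to 1.51 with it and to 1.48 with no neuronal limit. The cause was not tested in any of these.

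Counts over all genes moved by over 1.5 times. All nuclei went from 14 called to 397 with DESeq2 and to between 0 and 237 with a library left out, the oligodendrocyte gate from 91 to between 20 and 286 over the other alternatives, the astrocyte gate from 65 to between 6 and 68 with a library left out, and Drd2 from 41 to between 1 and 117. No paired analysis was possible because saline and naloxone libraries share no replicate numbers. Low counts limit what can be read of Erbb2 everywhere and of every member in the endothelial gate, where the fit recovered 2.0% of known log2 changes of 1 in made-up counts. Why Erbb2 counts were low was not tested.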

Other observations

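Among the smaller gates, 188 ependymal-gated nuclei held Nrg1 at 1248 ± 757 CPM and 297 endothelial-gated nuclei held it at 501 ± 513 CPM (SD, n = 6 libraries), with libraries from 23.8 to 1274 CPM in the latter. The SDs are as large as the means or nearly so, and both gates fell to few nuclei in some libraries, so no order was read from them.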
